A study of Mus musculus with 24 samples.

Results

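The Rcsd1, Sema4b and Tmem131 loci are 3 stretches of the mouse genome in which a chromatin region inside the gene differed between blood stem and progenitor cells recovered from IκB– and from WT transplant recipients. The regions are chr1:165680082-165680428 in Rcsd1, 347 bp wide, chr7:80208753-80209161 in Sema4b, 409 bp wide, and chr1:36919729-36920310 in Tmem131, 582 bp wide, in build mm10. They are called the shifted regions here. Each was chosen because of its difference between recipients in these same libraries, so its recipient values are given as a description, without a test. All other regions within 100 kb of a shifted region were added by position alone. This gave 20 of the 13910 regions of the deposited table: 9 in the Rcsd1 window, 9 in the Sema4b window and 2 in the Tmem131 window. Of the 17 added regions, 16 passed the filter on low counts and were tested.

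ATAC-seq uses the Tn5 transposase to insert sequencing adapters into open chromatin, so that the number of reads over a region follows how accessible its DNA is. The profiled cells were CD45.1 donor cells of WT genotype in every library. They had been transplanted into young CD45.2 recipients, either WT or IκB–, and were recovered from femur and tibia marrow 13 to 15 weeks later; the labels do not say what the genetic change in IκB– recipients is. Lineage-negative cells with Sca1 and high Kit were sorted under the labels long-term stem cells (HSC) and multipotent progenitors of class MPP2, MPP3 or MPP4, with 500 to 1500 cells per sample. The gates were Flt3-, CD150- and CD48- for HSC, as the protocol writes it, Flt3-, CD150+ and CD48+ for MPP2, Flt3-, CD150- and CD48+ for MPP3, and Flt3+ for MPP4. Long-term stem cells are usually taken as CD150+, so the written HSC gate may be a misprint or may hold other cells; HSC stands for the label throughout. Each of the 8 groups of recipient type and subset had 3 libraries. Nothing in the labels says that they came from separate animals, so p-values measure the spread between these samples.

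Rcsd1 encodes CapZIP, a protein that binds the actin capping protein CapZ and is phosphorylated by stress-activated kinases. Sema4b encodes a transmembrane semaphorin of class 4, a family of guidance molecules that signal to neighbouring cells mainly through plexins. Tmem131 encodes a membrane protein needed for the secretion of collagen. Promoters of widely expressed genes tend to be open in many cell types, whereas accessible regions inside or between genes vary more between cell types, and many of them act as enhancers.

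Sequence is given for 3 promoters to which the shifted regions are compared: those of Tmem131 and Sema4b, where an accessible region overlaps the promoter window but ends 118 bp and 63 bp upstream of the annotated start, and that of Creg1, where the added region of the Rcsd1 window with the highest mean over all replicates covers the start. A region is named after a start within 1 kb of it. Other gene starts in the windows are described by their values only. The promoter windows of RefSeq on GRCm38.p6, the assembly of mm10, reach from 250 bases before to 50 bases after an annotated start, and the parts upstream of the start that lie inside an accessible region are given 5′ to 3′ on the strand of the gene. They are chr1:36939645-36939777 on the minus strand for Tmem131, chr7:80198338-80198525 on the plus strand for the second start of Sema4b, and chr1:165763551-165763757 on the plus strand for Creg1, a secreted glycoprotein gene at the far side of the Rcsd1 window. Capitals mark GGGCGG, the core of a GC box, on either strand.
Tmem131 promoter: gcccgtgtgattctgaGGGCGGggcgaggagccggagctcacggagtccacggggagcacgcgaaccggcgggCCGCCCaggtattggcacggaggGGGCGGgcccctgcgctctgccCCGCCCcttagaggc
Sema4b second promoter: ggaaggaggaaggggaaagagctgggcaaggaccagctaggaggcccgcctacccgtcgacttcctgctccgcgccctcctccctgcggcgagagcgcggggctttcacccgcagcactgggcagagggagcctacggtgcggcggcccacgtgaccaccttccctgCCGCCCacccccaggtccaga
Creg1 promoter: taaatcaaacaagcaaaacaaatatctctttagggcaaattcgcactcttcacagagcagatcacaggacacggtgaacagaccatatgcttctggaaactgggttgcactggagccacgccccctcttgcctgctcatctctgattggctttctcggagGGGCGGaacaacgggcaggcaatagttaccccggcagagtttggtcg
The Tmem131 stretch held 4 GGGCGG matches and 15 CpG dinucleotides in 133 bases with a GC content of 75.2%. The Sema4b stretch held 1 match and 15 CpG in 188 bases at 70.7% GC. The Creg1 stretch held 1 match and 8 CpG in 207 bases at 51.2% GC. Of all 32851 promoter windows of 300 bases, 35.7% held GGGCGG on either strand. The motifs CCGGAAG, an ETS core held by 8.86% of the windows, and the κB consensus, held by 8.46%, were searched on both strands of the same 3 windows and had 0 matches. The table of promoters used here had no entry for Rcsd1.

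Library totals ran from 121599 to 963699 counts, so a single count in a small window region carries a wide counting error. Replicates 2 and 3 of WT MPP3 differed by no more than sampling noise (chi-square test of 13126 regions, p 0.348); their counts were summed and counted as 1 sample, which left 11 WT and 12 IκB– replicates. The mean Pearson correlation of a replicate with the others of its subset, over log2 CPM of all tested regions, was 0.652 to 0.684 for the IκB– HSC, against 0.714 to 0.742 for the WT HSC, 0.769 to 0.850 for MPP2 and MPP3, and 0.635 to 0.759 for MPP4. Values for HSC were therefore also computed without each IκB– HSC replicate. The lowest correlation of all was that of WT MPP4 replicate 1, at 0.635, against 0.743 and 0.740 for the other WT MPP4 replicates. When any 1 replicate was left out, the MPP4 log2 fold change, IκB– over WT, ran from 1.51 to 2.19 at the shifted Rcsd1 region. It ran from -2.69 to -2.01 at the Sema4b region and from -2.30 to -2.12 at the Tmem131 region. Of the 8 genes of the sorting scheme and of early progenitors, 3 had a region within 1 kb of a gene end, Kit, Cd34 and Flt3. At the Flt3 region the WT groups ran from 39.9 ± 24.2 CPM in HSC to 63.3 ± 36.7 in MPP4 and the IκB– groups from 63.1 ± 20.8 in HSC to 100.2 ± 28.5 in MPP4 (mean ± SD, n = 3); the subsets did not pass the test there (adjusted p = 0.408 by the edgeR quasi-likelihood test with Benjamini-Hochberg adjustment). Of the markers of other cells, 0 of 5 B cell and 0 of 7 granulocyte and monocyte genes had such a region, 1 of 6 T cell genes (Cd3d), 1 of 5 erythroid genes (Epor) and 2 of 4 megakaryocyte genes (Itga2b and Pf4); 0 of these 4 regions were called in the mean recipient effect, where 1.73% of all tested regions were called. The summed megakaryocyte regions ran from 64.3 to 90.2 CPM over the WT groups and from 51.3 to 88.1 over the IκB– groups, and the Epor region from 19.4 to 52.7 and from 18.3 to 34.8. Their part in the results was not tested.

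The Rcsd1 region was more accessible in cells from IκB– recipients in all 4 subsets. Levels are in CPM, each count divided by its TMM-scaled library size and set to the same total. In HSC the WT replicates had 42.8, 7.82 and 4.72 CPM and the IκB– replicates 27.5, 125 and 13.3. In MPP2 the WT replicates had 10.6, 12.1 and 0 CPM and the IκB– replicates 44.5, 110 and 45.4. The 0 is 0 counts in a library in which 3 counts could have been missed by chance, and groups did not overlap in MPP2 while they overlapped in HSC. In MPP3 the WT replicates had 37.9 and 32.1 CPM against 82.3, 143 and 94.7, and in MPP4 27.8, 17.4 and 38.2 against 101, 76.0 and 105. In both of these subsets every IκB– replicate lay above every WT replicate. The same held at 12.5% of all tested regions in MPP3, 6% in MPP4 and 6.18% in MPP2, and this region was chosen by its difference. The counts behind the WT values were small, with 10 counts over the 3 WT HSC libraries, 9 in MPP2, 41 in MPP3 and 17 in MPP4.

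The log2 fold change of the Rcsd1 region, IκB– over WT, was 1.88 ± 0.29 (SE) as the mean over subsets. By subset it was 2.60 ± 0.62 in MPP2, 1.83 ± 0.53 in MPP4, 1.58 ± 0.45 in MPP3 and 1.49 ± 0.72 in HSC. The HSC value rested on single replicates: it was 0.24 without IκB– replicate 2 and 2.78 without WT replicate 1. In order of level the groups were IκB– MPP3 at 107 ± 32.0 CPM, IκB– MPP4 at 93.8 ± 15.6, IκB– MPP2 at 66.7 ± 37.6 and IκB– HSC at 55.3 ± 60.8 (SD), followed by WT MPP3 at 35.0 ± 4.10, WT MPP4 at 27.8 ± 10.4, WT HSC at 18.4 ± 21.1 and WT MPP2 at 7.59 ± 6.61. No 2 neighbours in this order differed beyond their spread, although the 4 IκB– groups all stood above the 4 WT groups. The place of IκB– HSC rested on replicate 2 at 125 CPM. Its other replicates, at 27.5 and 13.3 CPM, lay below the means of WT MPP3 and WT MPP4.

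The Sema4b region went the other way and was less accessible in cells from IκB– recipients. In HSC the WT replicates had 73.4, 89.9 and 61.3 CPM and the IκB– replicates 20.7, 26.8 and 48.8. In MPP2 the WT values were 59.6, 84.9 and 66.0 and the IκB– values 51.4, 29.4 and 66.7. The groups were apart in HSC and overlapped in MPP2. In MPP3 the WT replicates had 53.1 and 59.7 CPM against 32.5, 11.7 and 32.5, and in MPP4 76.5, 66.1 and 85.9 against 13.6, 30.4 and 9.25. Both of these subsets showed every IκB– replicate below every WT replicate. The same held at 15.7% of all tested regions in MPP3, 5.85% in MPP4 and 4.4% in HSC, and this region was chosen by its difference.

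The log2 fold change of the Sema4b region was -1.23 ± 0.20 (SE) over subsets. It was -2.32 ± 0.47 in MPP4, -1.12 ± 0.44 in HSC, -1.07 ± 0.37 in MPP3 and -0.40 ± 0.34 in MPP2, and the HSC value became -1.69 without IκB– HSC replicate 3. The MPP2 value was -0.23 without WT MPP2 replicate 2, -0.26 without IκB– MPP2 replicate 2 and -0.62 without IκB– MPP2 replicate 3. The WT groups held a narrow band, from 76.2 ± 9.94 CPM in MPP4 and 74.9 ± 14.4 in HSC to 70.1 ± 13.1 in MPP2 and 56.4 ± 4.66 in MPP3 (SD). The IκB– groups followed with 49.2 ± 18.8 in MPP2, 32.1 ± 14.8 in HSC, 25.6 ± 12.0 in MPP3 and 17.7 ± 11.2 in MPP4. Adjacent groups in this order overlapped in their replicates, and WT MPP3 lay below WT MPP2 by about 1 SD.

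The Tmem131 region was also less accessible in cells from IκB– recipients, with the largest difference in MPP4. In MPP4 the WT replicates had 118, 97.3 and 110 CPM and the IκB– replicates 21.8, 30.4 and 21.6, which came from 8, 4 and 7 counts. In HSC the WT replicates had 135, 129 and 151 CPM and the IκB– replicates 124, 53.6 and 66.5. The groups did not overlap in either subset, with 1 IκB– HSC replicate close to the WT values. Every IκB– replicate lay below every WT replicate at 5.85% of all tested regions in MPP4 and at 4.4% in HSC. In MPP2 the WT values of 149, 155 and 121 CPM overlapped the IκB– values of 82.0, 161 and 128. In MPP3 both recipients were low, at 36.0 and 49.0 CPM in WT against 22.0, 25.8 and 40.6 in IκB–, again with overlap.

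The log2 fold change of the Tmem131 region was -0.97 ± 0.17 (SE) over subsets and -2.19 ± 0.38 in MPP4, -0.76 ± 0.33 in HSC, -0.62 ± 0.35 in MPP3 and -0.32 ± 0.27 in MPP2. The HSC value was -1.15 without IκB– HSC replicate 1, the MPP2 value -0.03 without IκB– MPP2 replicate 1, and the MPP3 value -0.36 without IκB– MPP3 replicate 1 and -0.37 without the summed WT MPP3 replicates. In order of level the groups were WT MPP2 at 142 ± 18.0 CPM, WT HSC at 138 ± 11.4, IκB– MPP2 at 124 ± 39.9, WT MPP4 at 108 ± 10.5 and IκB– HSC at 81.4 ± 37.4 (SD). A gap without overlap separated these from WT MPP3 at 42.5 ± 9.15, IκB– MPP3 at 29.5 ± 9.81 and IκB– MPP4 at 24.6 ± 5.04. MPP4 from WT recipients thus lay in the upper set, with HSC and MPP2, and MPP4 from IκB– recipients in the lower set, with MPP3.

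**Figure D1:**
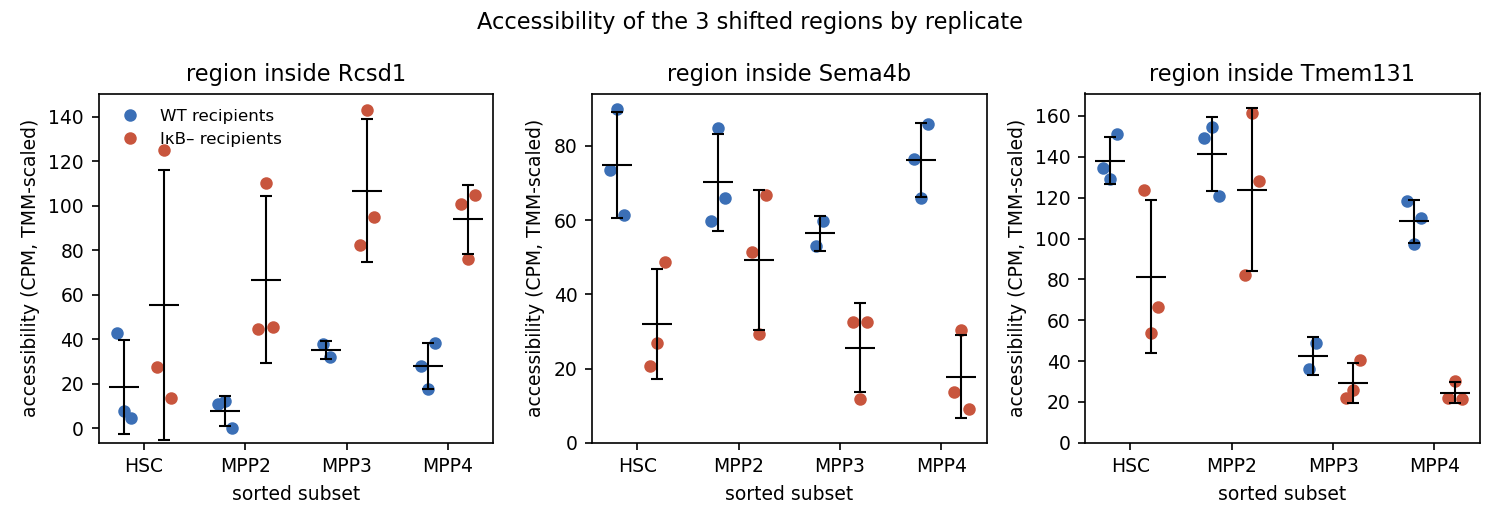
Accessibility of the 3 shifted regions (panels; y axis, CPM) by sorted subset (x axis) in WT (blue) and IκB– (red) recipients; points are replicates, bars the mean and whiskers 1 SD (n = 3, or 2 for WT MPP3). The Rcsd1 region is higher in IκB– recipients, the Sema4b and Tmem131 regions lower, and the MPP4 replicates of all 3 regions do not overlap between recipients. The regions were chosen by their difference between recipients. In MPP4, 6% of all tested regions have every IκB– replicate above every WT replicate, and 5.85% have every one below.

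The recipient differences did not extend to the rest of the windows at a level that passed a test. In the mean over subsets, 0 of the 16 added regions tested were called (edgeR quasi-likelihood test, Benjamini-Hochberg adjusted p under 0.05), where 1.73% of all 13325 tested regions were; 4 of the 16 had an unadjusted p under 0.05, against 14.3% of all tested regions, and DESeq2 and limma-voom also called 0. All 4 regions with such an unadjusted p lie in the Rcsd1 window, which held 7 tested added regions. The Mpzl1 start and the regions chr1:165691538-165691821 and chr1:165709685-165709909 had the sign of the shifted region. The Creg1 start had the opposite sign. The smallest adjusted p among the 16 was 0.192. Their median log2 fold change was -0.11, with 6 positive and 10 negative, against -0.00 over all tested regions. By subset, 0 of 16 were called in HSC, MPP2, MPP3 and MPP4, with 2, 1, 1 and 3 at an unadjusted p under 0.05, against 6.31%, 3.65%, 9.52% and 7.10% of all tested regions. Over all tested regions 0% were called in HSC and in MPP2, 0.21% in MPP3 and 0.045% in MPP4.

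In the Rcsd1 window the region next to the shifted one, 11110 bp away inside the same gene at chr1:165691538-165691821, had 23.1 to 34.0 CPM over the WT group means and 34.3 to 52.1 over the IκB– group means. Its log2 fold change was 0.68 ± 0.26 over subsets (edgeR quasi-likelihood, adjusted p = 0.192), and 0.30 without IκB– HSC replicate 3. The region at the upper end of Rcsd1, chr1:165709685-165709909, was the only one within 1 kb of an end of that gene. It had 2.88 ± 2.52 CPM in WT HSC against 20.8 ± 22.5 in IκB– HSC, from counts of 0, 1 and 1 and of 0, 5 and 4, so that no fold is given there. In the other subsets it had 14.9 ± 6.17 against 24.5 ± 10.8 CPM in MPP2, 29.7 ± 0.895 against 32.6 ± 7.46 in MPP3 and 30.0 ± 5.57 against 33.8 ± 20.2 in MPP4, with log2 fold changes of 0.67 ± 0.60, 0.12 ± 0.49 and 0.29 ± 0.55 (SE), and the recipients overlapped in each of them. The mean over subsets, which includes the HSC estimate, was 0.88 ± 0.35 (adjusted p = 0.208). The region on the lower side, chr1:165642424-165642629, lies outside genes and fell under the count filter with 160 counts in all libraries.

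The added region of the Rcsd1 window with the highest mean over all replicates was the Creg1 start, chr1:165763551-165764372; in IκB– recipients alone the Mpzl1 start was higher, at 115 ± 28.0 against 106 ± 36.4 CPM (SD, n = 12). WT HSC had 160 ± 41.9 CPM there, WT MPP2 150 ± 4.30, WT MPP4 115 ± 59.0 and WT MPP3 109 ± 6.33 (SD), against 116 ± 44.9, 147 ± 7.54, 74.0 ± 19.0 and 85.9 ± 9.52 for the same subsets from IκB– recipients. The log2 fold change was -0.36 ± 0.15 (adjusted p = 0.223), the opposite sign to the shifted region. The start of Mpzl1, a cell-surface glycoprotein gene 45279 bp below the shifted region, had a log2 fold change of 0.30 ± 0.14 (adjusted p = 0.298). The 7 tested neighbours of the Rcsd1 region were positive in 5 cases and negative in 2.

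In the Sema4b window the nearest region had other values than the shifted one, although only 564 bp lie between them. This next region, chr7:80209726-80209957, also lies inside Sema4b. In MPP4 the WT replicates had 27.8, 20.9 and 28.6 CPM and the IκB– replicates 57.1, 68.4 and 61.6. In HSC the WT values were 6.11, 35.2 and 42.4 against 55.1, 53.6 and 26.6. The MPP4 groups were well apart with IκB– on top, and the HSC groups overlapped. In MPP2 the order was reversed, with 25.5, 21.2 and 22.0 CPM in WT against 19.5, 14.7 and 13.3 in IκB–, and in MPP3 the WT values of 30.4 and 30.6 lay just below the IκB– values of 30.6, 58.6 and 43.3. None of these differences was called: the log2 fold change was 0.45 ± 0.24 over subsets (adjusted p = 0.383), 1.27 ± 0.46 in MPP4 (adjusted p = 0.542), 0.52 ± 0.51 in HSC (adjusted p = 0.918), 0.47 ± 0.40 in MPP3 (adjusted p = 0.804) and -0.47 ± 0.49 in MPP2 (adjusted p = 0.999), by edgeR's quasi-likelihood test.

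Set against each other within a library, the pair of Sema4b regions had another balance in IκB– than in WT recipients outside MPP2. Of the counts that fell on either region, the shifted one took 71.6% in WT HSC, 74.7% in WT MPP2, 65.0% in WT MPP3 and 75.0% in WT MPP4. In IκB– recipients it took 45.9%, 75.9%, 41.1% and 19.4% in the same order. The share was thus close between recipients in MPP2 and lower in IκB– recipients in the other 3 subsets. In HSC the replicates overlapped, since IκB– HSC replicate 3 had 64.7% and WT HSC replicate 3 had 59.1%, and the IκB– share was 30.0% without the former, from 20 counts. In MPP4 the log2 ratio of the shifted to the next region was 1.48 ± 0.118 (SD, n = 3) in WT and -1.87 ± 0.741 (SD, n = 3) in IκB– recipients. Because the shifted region was chosen by its own fall, these ratios are a description. Over the 23 replicates the log2 CPM of the pair had a Pearson r of -0.657, and of -0.270 after the group means were removed; both regions share library and depth.

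**Figure D2:**
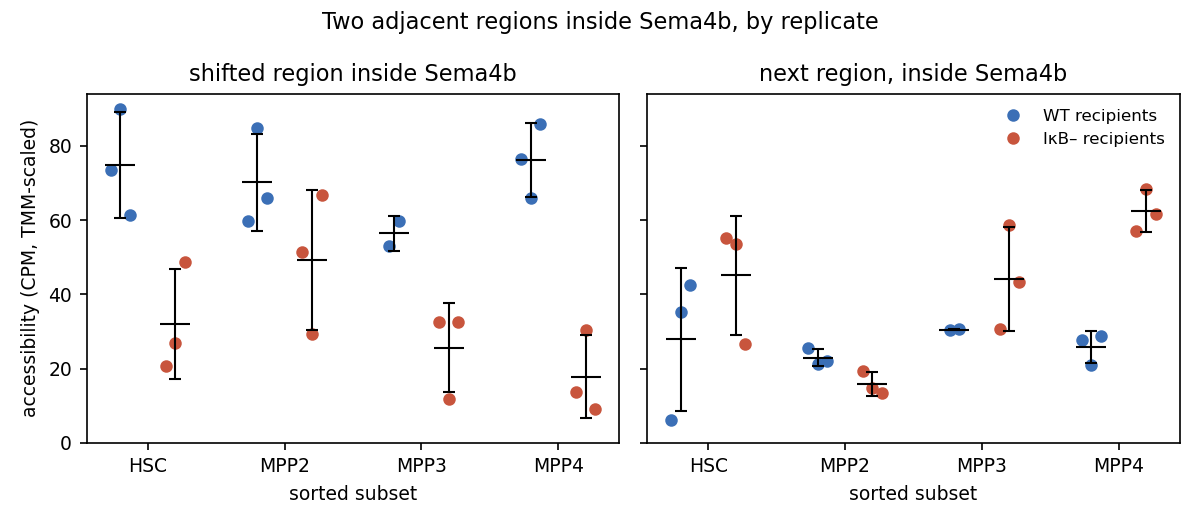
Accessibility (y axis, CPM) of the shifted Sema4b region and of the next region in the same gene by subset (x axis) in WT (blue) and IκB– (red) recipients; points are replicates, bars the mean and whiskers 1 SD. In MPP4 the shifted region lies at 9.25 to 30.4 CPM in IκB– recipients and the next region at 57.1 to 68.4, whereas in WT recipients the shifted region is the higher of the pair.

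At the region just upstream of the second start of Sema4b, with the sequence given above, levels were low in all groups, from 14.7 ± 3.60 CPM in WT MPP2 to 33.9 ± 5.71 in WT HSC and from 14.2 ± 8.33 in IκB– MPP4 to 27.0 ± 9.01 in IκB– HSC. The log2 fold change was -0.17 ± 0.28 over subsets (edgeR, adjusted p = 0.853) and -1.03 ± 0.62 in MPP4 (adjusted p = 0.770). The most accessible added region was the shared start of Cib1, a calcium-binding protein gene, and Gdpgp1 at chr7:80232517-80232986. It had 176 ± 43.1 CPM in WT MPP4 against 97.6 ± 30.5 in IκB– MPP4, with a log2 fold change of -0.79 ± 0.34 there (adjusted p = 0.643) and of -0.14 ± 0.17 over subsets (adjusted p = 0.766). Of the 8 tested neighbours of the Sema4b region, 7 were negative and 1 positive over subsets, and the same counts held in MPP4. Their median log2 fold change in MPP4 was -0.56, against -0.006 over all tested regions. Negative neighbours numbered 4 in HSC, 5 in MPP2 and 3 in MPP3.

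The Tmem131 window held only 1 other region, just upstream of the start of the gene and 19335 bp from the shifted region, chr1:36939645-36940170. Its replicates ran from 48.7 to 142 CPM, and the group means from 75.8 ± 5.46 in MPP3 to 88.9 ± 21.2 in HSC for WT and from 66.5 ± 15.2 in MPP4 to 86.5 ± 48.2 in HSC for IκB– recipients. Over the same groups the shifted region ranged from 24.6 to 142 CPM. The promoter's log2 fold change was -0.12 ± 0.17 over subsets (edgeR, adjusted p = 0.814) and -0.31 ± 0.36 in MPP4 (adjusted p = 0.917), against -2.19 ± 0.38 for the shifted region in that subset. Over the 23 replicates the log2 CPM of promoter and shifted region had a Pearson r of 0.161.

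**Figure D3:**
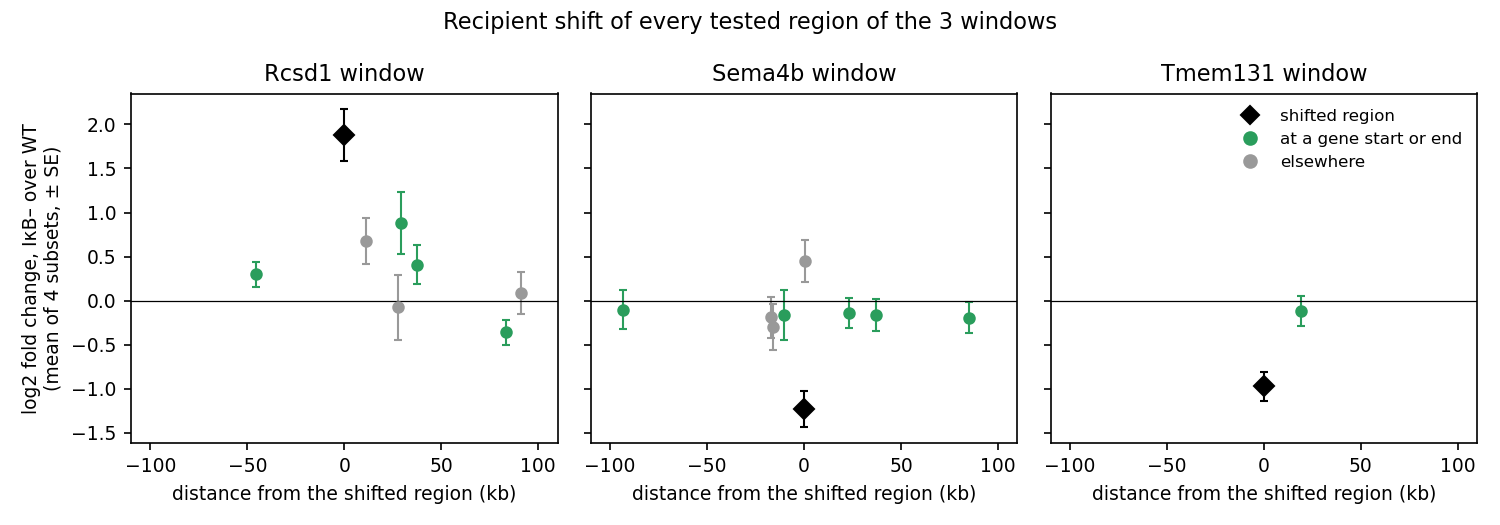
Recipient effect averaged over subsets (y axis, log2 fold change IκB– over WT with 1 SE) of each tested region against its distance from the shifted region (x axis, kb) in the 3 windows; diamonds are the shifted regions, green points regions at a gene start or end, and grey points other regions. The diamonds stand at 1.88, -1.23 and -0.97, and the 16 other regions between -0.36 and 0.88.

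The regions nearest to the limit of 100 kb were read on both sides of it. Inside the Rcsd1 window the outermost regions, 45279 bp below at Mpzl1 and 91125 bp above, had log2 fold changes of 0.30 ± 0.14 and 0.08 ± 0.24; the first outside, 218679 bp below at Dcaf6 and 322095 bp above at Pou2f1, had 0.06 ± 0.11 and -0.06 ± 0.14. In the Sema4b window the outermost regions, 93228 bp below and 84992 bp above, had -0.10 ± 0.22 and -0.19 ± 0.17, and the first outside, 133386 bp below at Zfp710 and 115044 bp above at Rccd1, 0.07 ± 0.21 and -0.06 ± 0.17. Around Tmem131 the first regions outside, 209549 bp below at Actr1b and 379326 bp above at Inpp4a, had 0.00 ± 0.16 and 0.27 ± 0.24.

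Each shifted region was also expressed as a share of the counts in its own window, which does not depend on depth or scaling. At Rcsd1 the share was 5.05% ± 3.59 (SD, n = 11) in WT and 15.7% ± 7.02 (SD, n = 12) in IκB– recipients, with 77 counts against 1298 in the rest of the window for WT and 348 against 1837 for IκB–. At Sema4b it was 13.9% ± 2.77 against 7.20% ± 4.11, and at Tmem131 56.3% ± 11.7 against 41.8% ± 18.7. The Tmem131 share in MPP4 was 58.4% ± 8.33 in WT and 27.1% ± 1.36 in IκB– recipients, and in MPP2 62.8% ± 6.86 and 63.8% ± 4.19. As a log2 ratio to the rest of the window, the difference between recipients averaged 1.81 ± 0.41 (SE) at Rcsd1, -1.15 ± 0.22 at Sema4b and -0.77 ± 0.23 at Tmem131. By subset the ratio difference was 1.36, 2.90, 1.41 and 1.58 at Rcsd1 for HSC, MPP2, MPP3 and MPP4, then -1.19, -0.33, -1.33 and -1.74 at Sema4b, and -0.70, 0.05, -0.61 and -1.84 at Tmem131. The Rcsd1 value in HSC was -0.15 when only the region at the gene's end was the denominator; that region has 0 to 5 counts per HSC library and more counts in IκB– than in WT HSC, and the cause was not tested. Single libraries moved several of these values by over 1.5 times. At Rcsd1 the HSC value was 0.51 without IκB– HSC replicate 2, 2.14 without IκB– HSC replicate 3 and 2.08 without WT HSC replicate 1. At Tmem131 the removal of IκB– HSC replicate 1 gave -1.28 and that of replicate 3 gave -0.19; the MPP3 value was -0.32 without the summed WT MPP3 replicates, -0.38 without IκB– MPP3 replicate 2 and -0.97 without IκB– MPP3 replicate 3, and the MPP2 value took either sign. At Sema4b the MPP2 value was -0.16 without WT MPP2 replicate 2 and -0.13 without IκB– MPP2 replicate 2.

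**Figure D4:**
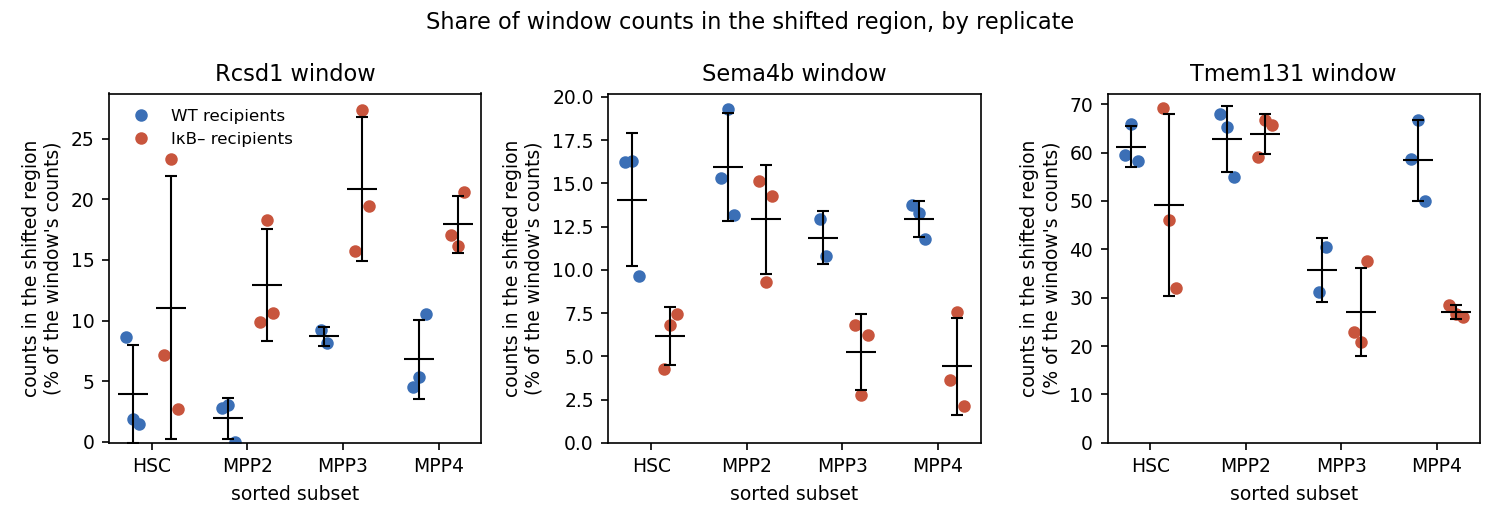
Share of each window's counts that fell on its shifted region (y axis, percent) by subset (x axis) in WT (blue) and IκB– (red) recipients; points are replicates, bars the mean and whiskers 1 SD. The Tmem131 share in MPP4 is 58.4% in WT and 27.1% in IκB– recipients, while the MPP2 shares are 62.8% and 63.8%.

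Replicates that do not overlap between recipients were also counted. In MPP4 the IκB– replicates all lay above the WT replicates at 2 of the 16 added regions, the Mpzl1 start and the next region in Sema4b, against 6% of all tested regions, and all below at 2, the Idh2 start and the Cib1 start, against 5.85%. In MPP2 they lay above at 2 added regions, the Gm51752 start and the second Sema4b start, and below at 1, the next region in Sema4b, against 6.18% and 5.6%. In MPP3 they lay above at 1, the next region in Sema4b, and below at 1, the Creg1 start, against 12.5% and 15.7%, and in HSC at 0 in either direction, against 4.11% and 4.4%. The joint test of whether the recipient effect differs between subsets called 0 of the 16 added regions and 0% of all tested regions (edgeR, adjusted p = 0.999 or above). An unadjusted p under 0.05 was found for 0 of the 16 and for 4.05% of all, so the count for the added regions is near the background.

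A separate question is whether the added regions differ between the sorted subsets, averaged over recipients. The joint test of MPP2, MPP3 and MPP4 against HSC called 2 of the 16 added regions, where 7.18% of all tested regions were called; at an unadjusted p under 0.05 it was 3 of 16, against 18.8% of all. Both calls lie in the Rcsd1 window. The region at the upper end of Rcsd1 had 0 to 5 counts in each HSC library, so no fold over HSC is given; it ran from 0 to 44.7 CPM in HSC, 10.6 to 36.7 in MPP2, 25.8 to 40.6 in MPP3 and 21.6 to 57.1 in MPP4 over both recipients (adjusted p = 0.0296). The Creg1 start stood at -0.44 ± 0.21 in MPP3, -0.53 ± 0.22 in MPP4 and 0.16 ± 0.20 in MPP2 (adjusted p = 0.0406). These calls depended on single libraries and that of the Creg1 start also on scaling and tool: leaving out 1 replicate ended the call of the gene's end in 8 of 23 cases (adjusted p from 0.00953 to 0.0683, the highest without IκB– MPP4 replicate 1) and that of the Creg1 start in 17 (0.00679 to 0.0991, the highest without IκB– MPP4 replicate 3). The Creg1 start was not called with total counts (edgeR, adjusted p = 0.0521), DESeq2 (0.0595) or limma-voom (0.0663), whereas the gene's end was called in each of these (0.0187, 0.0203 and 0.0461). Both were called with a replicate block over all libraries (edgeR, adjusted p = 0.00765 for the gene's end and 0.00401 for the Creg1 start). Neither was called within one recipient type alone, in tests added after the data were seen. Within WT recipients 0 of the 16 added regions were called and 1 had an unadjusted p under 0.05, where 0.12% of all tested regions were called and 6.60% had such a p (edgeR). Within IκB– recipients 1 of the 16 was called, the region next to the shifted one in Sema4b (edgeR, adjusted p = 0.0357), where 5.22% of all tested regions were called; over both recipients that region was not called (adjusted p = 0.162). The Tmem131 promoter gave an adjusted p of 0.761 over both recipients.

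The shifted regions were chosen from the same libraries, so their differences between subsets are given as a description, without a test. Averaged over recipients, the Tmem131 region was at a log2 fold change of -1.61 ± 0.25 (SE) in MPP3, -1.08 ± 0.26 in MPP4 and 0.28 ± 0.21 in MPP2 relative to HSC. The shifted Rcsd1 region was at 1.14 ± 0.41 in MPP3, 0.89 ± 0.46 in MPP4 and -0.26 ± 0.50 in MPP2. The shifted Sema4b region was at -0.39 ± 0.30 in MPP3, -0.60 ± 0.33 in MPP4 and 0.25 ± 0.28 in MPP2. The MPP4 average of the Tmem131 region includes the low IκB– values given above.

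Regions elsewhere in the genome with the most similar profile over the 23 replicates were listed by Pearson r of log2 CPM, as a description of replicates that share library and depth. Group means were not removed, so the recipient difference of a shifted region entered its r. A shared direction between recipients is therefore partly built in by the selection. For the Rcsd1 region the first was a region in no gene, 1148741 bp from the nearest gene end, that of Alcam (r 0.861). The others lay 17442 bp from Slc25a17 (0.840), 17734 bp from Pde4b (0.818), and inside Ttll11 (0.830) and Ptma (0.794). The recipient log2 fold changes of these regions were 0.72 to 1.30. For the Sema4b region they lay 17291 bp from Plpp7 (0.857), 63799 bp from Lmo2 (0.830), 9600 bp from Tacc3 (0.807) and 44425 bp from Syf2 (0.797). A further one lay inside Pitpnm1 (0.799). Their recipient changes were -1.36 to -0.50. For the Tmem131 region they lay inside Ppp1r13b (0.894) and Tmcc2 (0.881), 14374 bp from Phf6 (0.888) and 9858 bp from Sugct (0.883). A further one lay in no gene, 492438 bp from the nearest gene end, that of Nr5a2 (0.892). Their recipient changes were -1.13 to -0.60.

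Gene lists for the pathways of the 3 genes were read at regions within 1 kb of a gene end, in the mean over subsets. Of 31 genes of semaphorins and their receptors (plexins, neuropilins and others such as Cd72), 6 had a tested region; 0 of the 6 regions were called in either direction, against 1.73% of all tested regions, 0 had an unadjusted p under 0.05, against 14.3%, and the median log2 fold change was 0.05. Nrp1, a semaphorin co-receptor, had the smallest p of these, at 0.31 ± 0.29 (edgeR, adjusted p = 0.692). Of 16 genes of actin capping and the p38 stress kinase pathway, 12 had a tested region; 0 of 13 regions were called, 1 had an unadjusted p under 0.05, a share below the 14.3% of all tested regions, and the median was -0.00. That region lies at Mapkapk2, a kinase gene downstream of p38, and had a log2 fold change of 0.42 ± 0.20 (edgeR, adjusted p = 0.332). Of 11 genes of collagen secretion, 7 had a tested region; 1 of 9 regions was called higher and 0 lower, where 1.73% of all tested regions were called, and the median was 0.25. The call was at Sec31a, which encodes a coat protein of the vesicles that leave the endoplasmic reticulum. Its region at chr5:100416125-100416562 had 87.3 ± 14.6 CPM (SD, n = 11) in WT and 125 ± 39.4 (SD, n = 12) in IκB– recipients, with a log2 fold change of 0.54 ± 0.14 (SE; edgeR, adjusted p = 0.0404), and the adjusted p ran from 0.0205 to 0.136 without 1 replicate, exceeding 0.05 in 17 of 23 cases and highest without the summed WT MPP3 replicates 2 and 3. It was 0.0511 with total-count scaling, 0.0713 with DESeq2 and 0.167 in limma-voom with a correlation estimated between same-numbered libraries of a recipient type. DESeq2 called 0 regions in all 3 lists and limma-voom called 0, 0 and 1. The median over all tested regions was -0.00.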

How the data were processed

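The deposited table holds raw read counts per region for 24 libraries, whole numbers made by the authors. Per the submitters' processing notes the build is mm10; Bowtie2, SAMtools, Picard, MACS2 2.1.0 and deepTools are named there without their roles; the counting tool, duplicate filter and transposase offset are not given in the sources used here. Groups and replicate numbers came from the sample titles. The members and gene lists were chosen with earlier results of these data known.

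The counts were analysed in R 4.3.3 with edgeR 4.0.16, using TMM scaling; filterByExpr kept 13325 of 13910 regions. The robust quasi-likelihood model had 8 group means and 15 residual degrees of freedom. Contrasts were the recipient effect in each subset and as the mean over 4 subsets, a joint F test of the subsets (planned for all members, reported for the added ones only), and a joint test of whether the recipient effect differs between subsets. P-values were adjusted by Benjamini-Hochberg across all tested regions, and a region under 0.05 is called. The fit was also run on simulated counts, and no result given here rests on that run. Window ratios used a pseudocount of 0.5, and similarity used log2 CPM with a prior count of 2. A floor of 3 counts was used; it allows for counting error alone, as PCR duplicates of a molecule may be counted. Regions named are the 3 shifted ones, those at the genes' ends, those called, the most accessible in each window and the nearest on each side; the Mpzl1, Idh2 and Gm51752 starts and Mapkapk2 were added after their values were seen. Genes came from a RefSeq table of GRCm38.p6 without exons, so intron or exon was not assigned. Alternatives were other scalings, no count filter, all libraries kept apart, a replicate block, DESeq2 1.42.0, limma-voom (limma 3.58.1) and leaving out each replicate.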

Additional observations from a re-analysis of the deposited data

Results flagged for a closer look

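The region next to the shifted one in Sema4b, chr7:80209726-80209957, had opposite signs between subsets. Every IκB– replicate of MPP3 and MPP4 lay above every WT replicate, and every IκB– replicate of MPP2 lay below. The same held at 12.5%, 6% and 5.6% of all tested regions in these subsets. The recipient effect in MPP3 minus that in MPP2 was 0.943 on the log2 scale. By subset the effect was 1.27 ± 0.46 (SE) in MPP4, 0.47 ± 0.40 in MPP3 and -0.47 ± 0.49 in MPP2. In MPP3 the lowest IκB– and the highest WT replicate were both at 30.6 CPM when rounded, so that separation is narrow. The joint test over the subsets, which covers this difference, gave an adjusted p of 0.999 (edgeR quasi-likelihood F test); the difference of this pair of subsets alone was not tested.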

How the results depend on the processing

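In 23 fits that each left out 1 replicate and in the other alternatives run (9 for the mean over subsets, 8 for each subset), 0 of the 16 added regions were called for the recipient effect. The count filter was rerun in each fit, so not all 16 were tested in each. For the mean over subsets, the second Sema4b start had a value in 14 of the 23 fits and in 6 of the 9 alternatives. Among the 16 added regions, 2 were called between subsets in the main fit, 0 within WT and 1 within IκB– recipients. The planned count also took in the shifted regions, which were chosen from these libraries. It is given only to show how it depends on the processing, and is no test of those regions. With the shifted regions the main count was 4 of 19. It was 5 with a replicate block within recipient type and 4 with the block over all libraries. It was 3 with total counts and with limma-voom, 2 with DESeq2, 1 within WT and 3 within IκB– recipients only. When a replicate was left out, it was 1 to 4. Over all tested regions the recipient effect called 231, against 481 with a replicate block and 287 without it when the 24 libraries were kept apart, 147 with DESeq2, 30 with recipient and number as a random block, and 53 to 442 when a replicate was left out; the subset test called 957, against 1938 with the block and 1078 without it when the libraries were kept apart, 2159 with the block within recipient type, 529 with limma-voom, and 623 to 1478. Same-numbered libraries of the recipients deviated together with correlations of -0.051 to 0.371 across regions, over 0.1 in 7 of 12 pairs and in all 3 for HSC only; those of subsets within a recipient type were over 0.1 in 15 of 18 pairs for WT and 12 of 18 for IκB–. The labels give the numbers no meaning, so the fits reported have no block; the block changed no count of added regions called between recipients. The Rcsd1 window ratio in HSC was -0.15 against the gene's end region alone, where the main value was 1.36. WT counts of 9 to 41 per group limit the Rcsd1 region.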

Other observations

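Regions around all called regions were read in the same way as the windows above. Of the 231 regions called in the mean over subsets, a set that holds the shifted regions because of how they were chosen, 177 had a tested neighbour within 100 kb, and 152 of these (85.9%) had no called neighbour there. The median neighbour effect, signed so that the direction of the called region is positive, was 0.05 on the log2 scale over the 177, with quartiles of -0.04 and 0.23. The same value was 0.30 for the Rcsd1 region, 0.16 for the Sema4b region and 0.12 for the Tmem131 region.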
